A study of Salmo salar with 31 samples.

Results

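The 34 features described here are oligonucleotide probes of an Atlantic salmon array whose signal in skin was not, or only slightly, below that of freshwater smolts after 1 month in seawater and lower after 4 months, in both rearing systems. Some of them stood above smolts at 1 month, since the rule set no upper limit there. They were chosen from 14841 non-control features by a rule on the deposited intensities. For each group the median over fish of the log2 intensity was taken, with values under 16 and blank values set to 16, and the smolt median was subtracted. Members had a highest group median of at least 6 on the log2 scale, a difference of -0.8 or less in both groups sampled at 4 months and a difference above -0.4 in both groups sampled at 1 month. The differences from smolts therefore chose the members. They are given below as a description, and no inference is drawn from counts of members called lower than smolts.

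Skin was taken from the flank of smolts in freshwater and of post-smolts 1 and 4 months (1M and 4M) after transfer to seawater. The transferred fish lived in a semi-closed containment system (S-CCS), which is a floating raceway fed with pumped deep water, or in a conventional open net-pen, which served as the control. The groups were smolts (n = 7) and, with n = 6 each, S-CCS and net-pen fish at 1M and S-CCS and net-pen fish at 4M, and each of the 31 arrays held the RNA of 1 fish. All fish came from the same farmed stock (Salmobreed QTL duo), brought to smolt stage in the same hatchery by a period of short days followed by continuous light. The labels name no further treatment. Each system was a single enclosure at its own site, so system, site, water temperature, salinity and water current cannot be told apart. Season and fish size changed together with time in seawater. At 4M the fish sampled in the net-pen also had a higher mean weight than those in S-CCS. The labels treat every fish as a separate sample.

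Fish skin consists of a living epidermis with mucous cells over a dermis with scales, collagen, pigment cells, vessels and fat, and muscle lies just below it. Smolts are adapted to seawater before they are moved, and the skin, which is the first barrier to the new environment, thickens and matures as the post-smolt grows. A level on such an array is the amount of a transcript relative to the rest of the RNA of the biopsy. Fewer cells of a type and less RNA per cell cannot be told apart in these samples. None of the 34 probe IDs was paired with a gene name in the deposited files, and none matched the 65341 genes of the RefSeq table of the assembly Ssal_v3.1. The members are therefore given by probe ID, with no gene, function or sequence attached. By prefix, 33 of the IDs were of Atlantic salmon (Ssa) and 1 of rainbow trout (Omy).

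Arrays had 84.3% to 97.1% of features well above background. Of the 1054 values of the members, 21 were not well above background and none was saturated. No member was below this limit on every array of a group, and 28 members passed it on all arrays. The floor of 16 was reached by 41 values in 8 members, and values at the floor have no order among themselves. As only 21 values were not well above background, some values at the floor were well above background to the scanner. A value at the floor is therefore not by itself an absent signal.

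Of the 9008 features with a highest group median of at least 6, 11.2% were lower than smolts by 0.8 or more in S-CCS 4M, while 6.79% were so in net-pen 4M. Among them 435 passed in both systems, and most of these were already low at 1M. A difference of -0.4 or less was seen at 1M in both systems for 177 features, in S-CCS only for 133 and in net-pen only for 91, which left the 34. Over the members the median difference from smolts was -0.23 in S-CCS 1M, and at 4M in the same system it was -1.14, a level 2.21-fold below smolts at 4M. In net-pen it was -0.07 at 1M and -1.08 at 4M, which corresponds to 2.11-fold. The differences ranged from -2.41 to -0.82 in S-CCS 4M and from -2.37 to -0.81 in net-pen 4M. In 16 members the level was at least 2-fold below smolts in both systems.

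**Figure D1:**
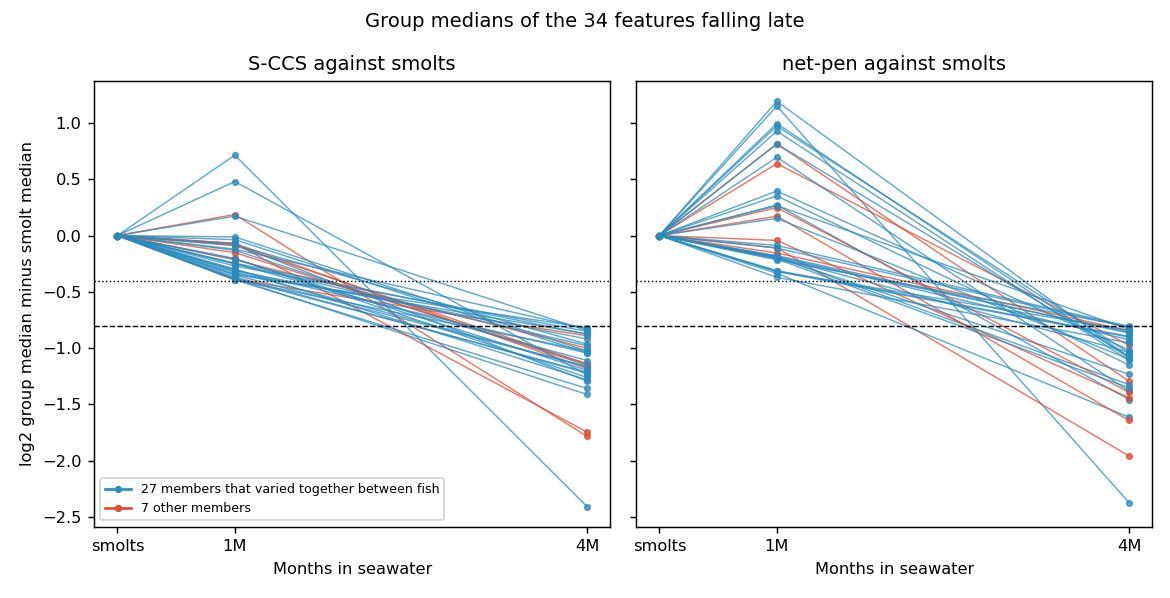
Difference of each group's median log2 intensity from the smolt median (vertical axis) against months in seawater for each of the 34 members, in S-CCS (left) and net-pen (right). The dotted and dashed lines mark the limits of -0.4 at 1M and -0.8 at 4M that chose the members, blue lines are 27 members that varied together between fish and red lines the other 7, and 9 members in net-pen and 2 in S-CCS stood above 0.4 at 1M.

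The members with the brightest spots showed the pattern at a level far above the floor. Ssa#GRASP223647757 had a scaled intensity of 2900 to 9309 in smolts with a median of 5979. At 1M the range was 2812 to 8321 around 5191 in S-CCS fish and 3085 to 7118 around 5221 in net-pen fish. At 4M it was 1755 to 3535 around 2493 in S-CCS fish and 1848 to 5253 around 2546 in net-pen fish. The median at 4M was thus 2.40-fold below smolts in S-CCS and 2.35-fold in net-pen, while the groups at 1M overlapped smolts over nearly the whole range. Single fish of both 4M groups still reached into the smolt range.

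Omy#S23939618 behaved alike with less spread. It had 1909 to 4624 around 2997 in smolts, 1781 to 3300 around 2594 in S-CCS 1M and 1399 to 3342 around 2622 in net-pen 1M. All S-CCS 4M fish, at 920 to 1456 around 1307, lay below the lowest smolt. In net-pen 4M the range was 1107 to 2121 around 1460.5, and 1 fish lay within the smolt range.

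Ssa#GRASP209733051 had a median of 4261 in smolts, then 4019 in S-CCS and 3417 in net-pen fish at 1M, followed by 2182 in S-CCS and 2374 in net-pen fish at 4M. Ssa#S35505374 differed from these by a higher net-pen median at 1M. Its medians were 1829 in smolts, 1488 in S-CCS and 2407 in net-pen fish at 1M, and 752 in S-CCS and 904 in net-pen fish at 4M.

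Full separation of the 4M fish from all smolts was seen in 2 members. Ssa#S18856731 had 162 to 250 around 219 in S-CCS 4M and 227 to 321 around 278 in net-pen 4M, against 389 to 719 around 538 in smolts. Its 1M groups, at 340 to 637 in S-CCS and 225 to 635 in net-pen, overlapped smolts. Ssa#GRASP209731023 had 233 to 277 in S-CCS 4M and 196 to 316 in net-pen 4M, against 336 to 600 around 464 in smolts. Its 1M fish, at 334 to 457 in S-CCS and 235 to 463 in net-pen, all lay below the smolt median already. No other member had every fish of both 4M groups below every smolt. In S-CCS 4M alone, 4 of the 34 members lay wholly below smolts, where 15.9% of all 9008 features did, and in net-pen 4M 2 members did, where the share was 5.62%. In both groups together the share was 4.22%. At 1M no member lay wholly below smolts, where the share of all features was 0.799% in S-CCS and 8.81% in net-pen. Ssa#GRASP209731023 and Ssa#S18856731 also had the smallest spread between fish among the members. Their pooled within-group SD was 0.27 and 0.34 on the log2 scale.

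**Figure D2:**
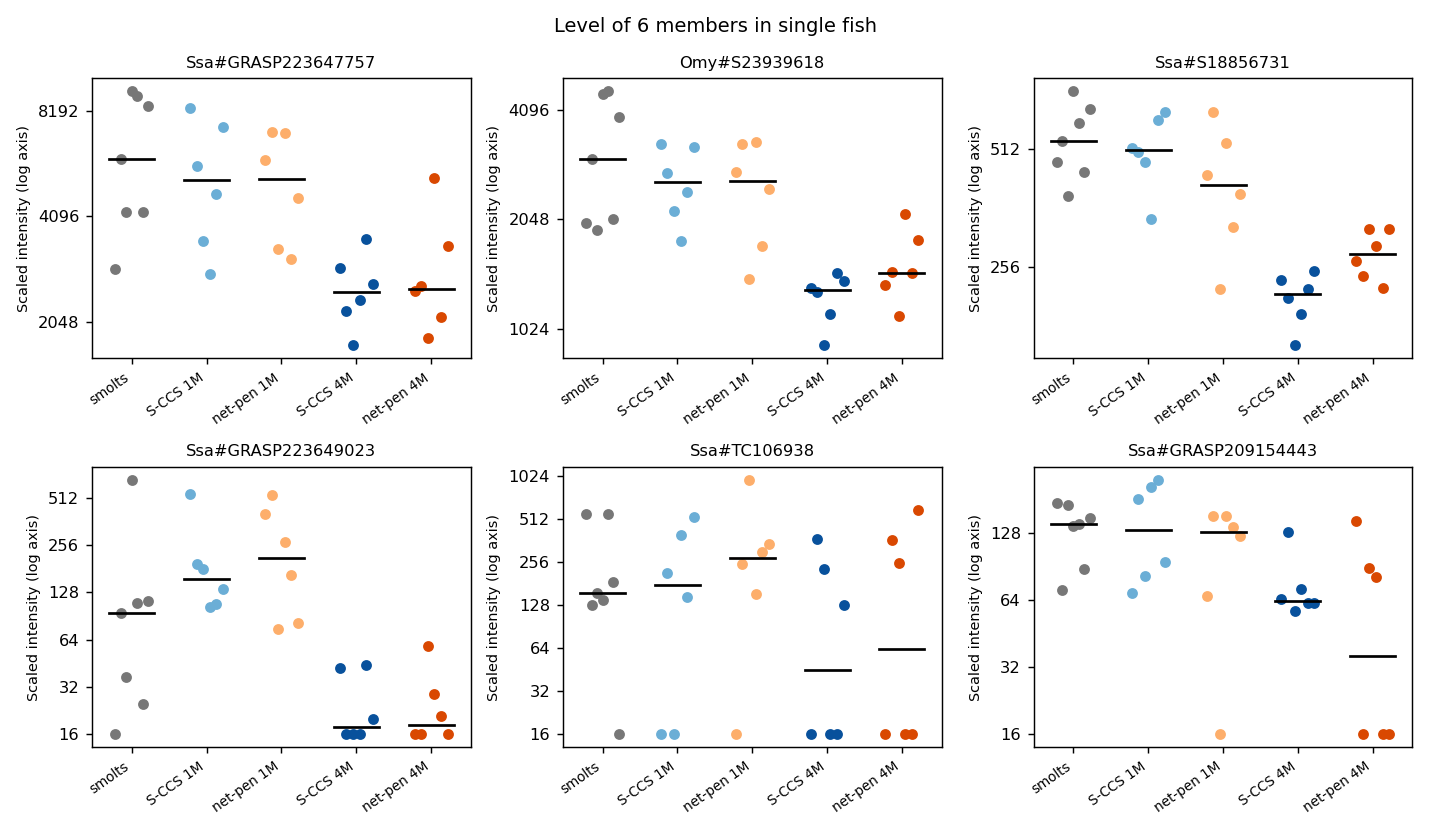
Scaled intensity (log axis, base 2) of 6 members in every fish, with the group median as a bar, in smolts and in the S-CCS and net-pen groups at 1M and 4M. Ssa#S18856731 separated all 4M fish from all smolts, Ssa#GRASP223647757 and Omy#S23939618 shifted with some overlap, and Ssa#GRASP223649023, Ssa#TC106938 and Ssa#GRASP209154443 held fish at the floor of 16.

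Several of the largest differences between medians came from dim and variable members, although Ssa#STIR36587, with a smolt median of 807, was at -1.64 in net-pen 4M. Ssa#GRASP223649023 had the lowest 4M medians relative to smolts. It ranged in smolts from the floor of 16 to 667 around 95. At 1M it ranged from 104 to 539 around 156 in S-CCS fish and from 75 to 537 around 211 in net-pen fish. In S-CCS 4M 3 of 6 fish were at the floor and the highest reached 44, and in net-pen 4M 3 of 6 were at the floor and the highest reached 58. All of these 4M fish were well above background to the scanner. The 4M medians of 17.9 in S-CCS and 18.3 in net-pen were close to the floor, so the difference of -2.41 and -2.37 is limited by it. Smolts covered a 41.7-fold range, and 3 of the 7 smolts lay within the range of the net-pen 4M fish.

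On the deposited values, Ssa#TC106938 and Ssa#S30263425 were at the floor in some fish of every group and above it in the others. Ssa#TC106938 was at the floor in 1 of 7 smolts, 2 of 6 S-CCS 1M fish, 1 of 6 net-pen 1M fish and 3 of 6 fish in each 4M group, and otherwise between 128 and 969. To the scanner, its 3 net-pen 4M fish at the floor were all well above background, so the floor does not show an absent signal there. Its medians were 156 in smolts, 178 in S-CCS and 274 in net-pen fish at 1M, and 45.3 in S-CCS and 63.6 in net-pen fish at 4M. The 4M medians thus lay between fish at the floor and fish at 128 to 597, a gap in which no 4M fish was measured. Ssa#S30263425 was at the floor in the same number of fish of each group, and its deviations from the group means followed those of Ssa#TC106938 with r = 0.983 over the 31 fish. In Ssa#S30263425, however, 3 of 6 S-CCS 4M fish and 2 of 6 net-pen 4M fish were not well above background to the scanner.

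Ssa#STIR36587 and Ssa#S35541403 formed a further pair with r = 0.984. Ssa#STIR36587 had 527 to 1309 around 807 in smolts, 206 to 1251 around 616 in S-CCS 1M and 260 to 1642 around 909 in net-pen 1M. At 4M it had 187 to 541 around 435 in S-CCS fish and 106 to 632 around 258 in net-pen fish. Ssa#S35541403 had medians of 235 in smolts, 202 in S-CCS and 279 in net-pen fish at 1M, and 118 in S-CCS and 89.5 in net-pen fish at 4M. Both were lowest in net-pen 4M, while 19 of the 34 members had the lower 4M median in S-CCS.

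Ssa#GRASP209154443 and Ssa#S48429151 followed each other with r = 0.878. Ssa#GRASP209154443 had 71 to 175 around 140 in smolts and 1M medians of 131 for S-CCS and 130 for net-pen. In S-CCS 4M it had 57 to 129 around 63.5. In net-pen 4M 3 of 6 fish were at the floor and the others had 81 to 145, with a median of 36.0 in the gap between them. To the scanner, 3 of these 6 fish were not well above background. Ssa#S48429151 had medians of 118 in smolts, 112 in S-CCS and 115 in net-pen fish at 1M, and 52.0 in S-CCS and 43.5 in net-pen fish at 4M. Both probes of a pair were read on the same arrays, and the correlations of these 3 pairs are given as a description.

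Of the remaining members with the lowest 4M medians relative to smolts, Ssa#S31969642 had 53 to 155 around 98.8 in S-CCS 4M and 54 to 259 around 85.9 in net-pen 4M, against 154 to 350 around 263 in smolts. Ssa#GRASP209732315 had 4M medians of 27.6 for S-CCS and 23.7 for net-pen, against 65 in smolts, with smolts spread over a 14.4-fold range. The members outside these pairs and the 3 named as lowest had 4M medians 1.75-fold to 2.61-fold below smolts in either system.

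A subset of the members stood above smolts at 1M before it was lower at 4M. The median of 9 members in net-pen 1M exceeded smolts by 0.64 to 1.19 on the log2 scale, and 2 members in S-CCS 1M exceeded them by over 0.4. Ssa#EL698468 had 141 to 712 around 432 in net-pen 1M against 82 to 415 around 189 in smolts, and then 42 to 134 around 81.5 in S-CCS 4M and 33 to 495 around 89.3 in net-pen 4M. Ssa#S47726818 had 664 to 2457 around 1320 in net-pen 1M against 110 to 1191 around 694 in smolts. In S-CCS 1M the same feature had 74 to 1508 around 528. The within-group SD on the log2 scale had a median of 1.40 in the 9 members, against 0.59 in the other 25, although single members of the 25 had a wider spread than some of the 9. The ratio of the highest to the lowest smolt had a median of 16.9 in the 9 and of 2.83 in the others.

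**Figure D3:**
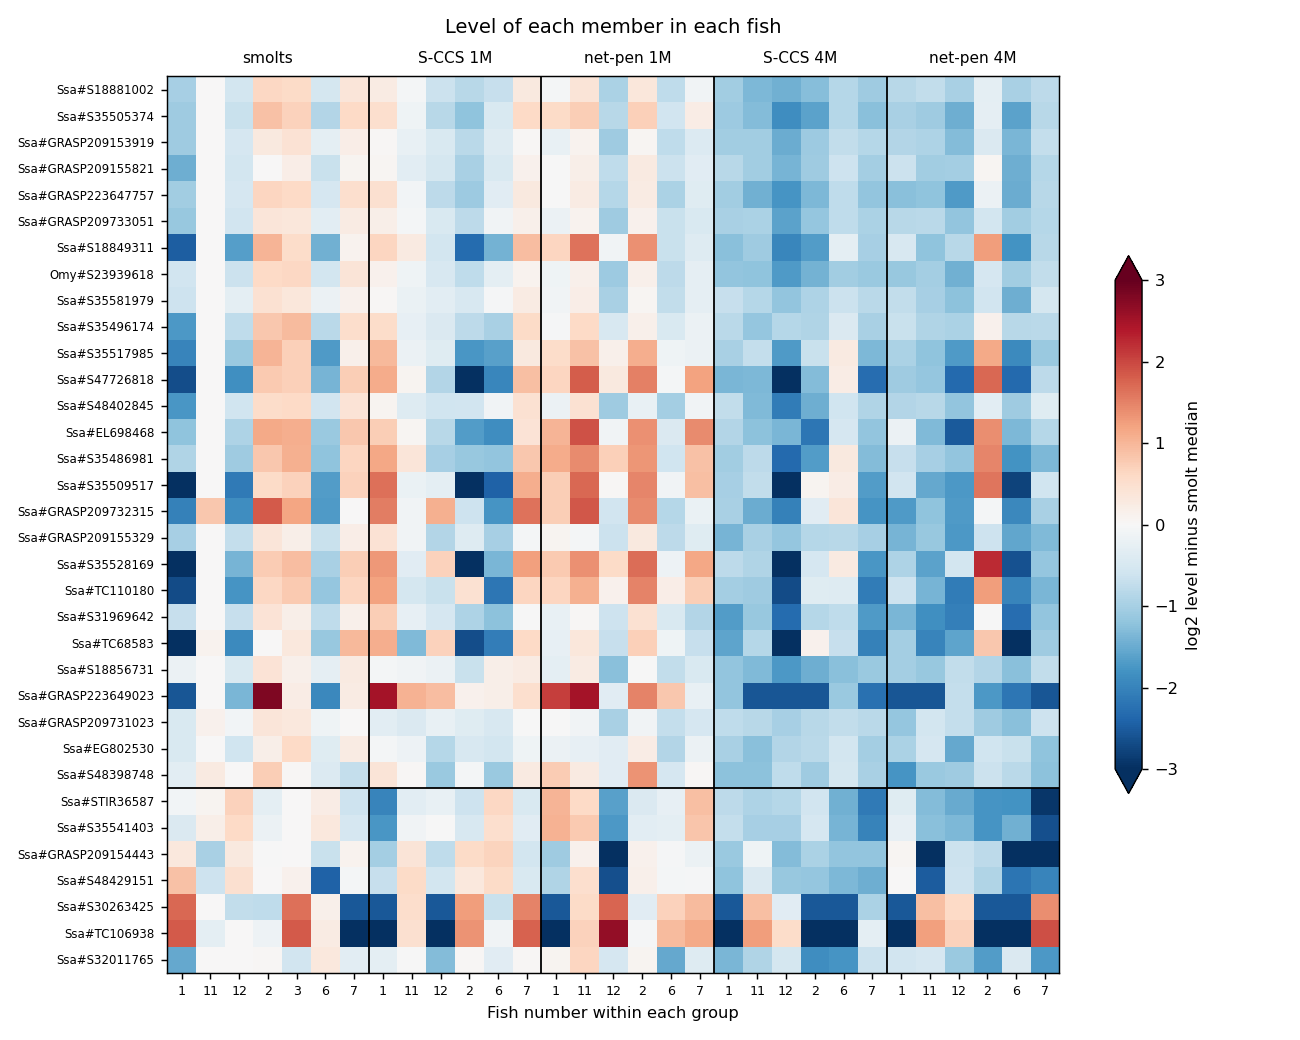
Log2 intensity of each member (rows, 27 that varied together above the line and 7 others below) in each of the 31 fish (columns) minus the smolt median, with colours saturating at 3 log2 units in both directions. Both 4M groups are mostly below the smolt median, and smolts 1, 12 and 6 and S-CCS 1M fish 2 and 6 are low in most rows of the upper part. Net-pen 4M fish 2 is the highest of its group in most of these rows, but above the smolt median only in a minority of them.

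The members varied strongly between fish of the same group, and most of them varied together. The within-group SD had a median of 0.68 on the log2 scale, against 0.29 over the 9008 features, and it exceeded that value in 33 of the 34 members. After subtraction of the group means, 27 members correlated with the mean of the other members with r from 0.51 to 0.97 over the 31 fish, and 18 of them with at least 0.8. The pairwise correlation among the 27 had a median of 0.76, compared with 0.10 over all pairs of the 9008 features. The other 7 members, with r from -0.31 to 0.17, were the 3 pairs described above and Ssa#S32011765. All members were read on the same arrays and the same labelled RNA, and the 27 were set apart by this correlation. The values therefore describe these fish and are no test.

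The mean of the 27 members ranged in smolts from -1.53 to 0.71 around 0.05 on the log2 scale relative to the smolt medians. It was -1.18 to 0.64 around -0.26 in S-CCS 1M and -0.50 to 0.73 around 0.16 in net-pen 1M. At 4M it was -1.95 to -0.49 around -1.12 in S-CCS and -1.63 to 0.16 around -1.10 in net-pen. Smolts 1, 12 and 6, at -1.53, -0.93 and -0.86, thus lay within the range of the 4M fish. Net-pen 4M fish 2, at 0.16, lay above the smolt median, so that smolt 11, at 0.05, also lay within that range. The 3 arrays with the highest scale factor in the deposited values, which is the constant that brings a dim array to the common level, were those of smolt 1 (1.097), S-CCS 4M fish 12 (1.01) and net-pen 1M fish 12 (0.811). The mean log2 level of the 27 members was the lowest of the group in smolt 1 and in S-CCS 4M fish 12, and in net-pen 1M fish 12 it was -0.49, next to the lowest value of -0.50 in fish 6. Smolt 3, with the fourth highest scale factor (0.736), was among the highest smolts, at 0.56. The part of array brightness in the pattern was not tested. Without the 3 arrays of highest scale factor the rule took 28 features, of which 17 were among the 34.

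**Figure D4:**
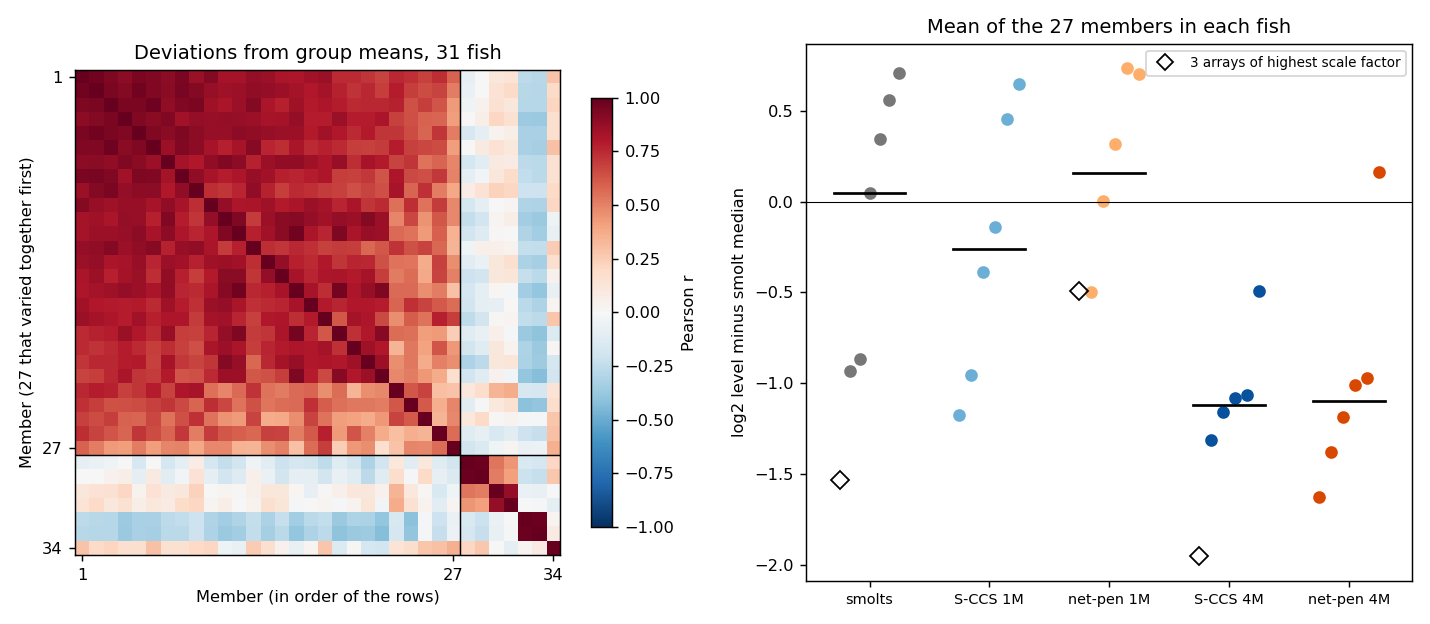
Left, Pearson r between the 34 members of the deviations from the group means over 31 fish, with the 27 members that varied together first. Right, mean log2 level of these 27 relative to the smolt medians in each fish with the group median as a bar, where the 3 arrays of highest scale factor (diamonds) include the lowest smolt and the lowest S-CCS 4M fish.

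This variation was shared with many other features. Of the 8974 features with a highest group median of at least 6 that were not members, 445 (4.96%) had r above 0.7 with the mean of the 27. Their median difference from smolts at 1M was -0.48 for S-CCS and -0.02 for net-pen, and at 4M it was -1.05 for S-CCS and -0.80 for net-pen. Of these 445 features 206 were lower by 0.8 or more in both 4M groups, and they missed the rule because they were lower by 0.4 or more at 1M, 192 of them in S-CCS fish and 78 in net-pen fish.

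The members lay on all parts of the array, with 7 to 11 in each of 4 equal fields, and no members were neighbouring spots. On slides that held both smolts and 4M fish, the members' median difference from smolts was -0.63 and -1.08 on the 2 slides with S-CCS 4M fish and -0.37 on the slide with net-pen 4M fish, with 2 arrays per group on each. On the 1 slide that held S-CCS 1M fish and a smolt, with 2 and 1 arrays, the median difference was -0.73 and 33 of the 34 members were lower in the S-CCS 1M fish, a value within the range of the slides with 4M fish. The smolt on it was smolt 3, and the S-CCS 1M fish were 11 and 12. Relative to smolt medians, the mean log2 level of members that varied together was 0.56 in smolt 3, among the highest smolts. It was -0.14 in S-CCS 1M fish 11 and -0.39 in fish 12. Counted over the slide-sharing arrays the difference in S-CCS 4M was -0.85, compared with -0.91 over all arrays in means of log2 levels. In net-pen 4M it was -0.37, compared with -0.83, and on that slide 24 of the 34 members were lower. The net-pen 4M fish on that slide were 1 and 2, and the smolts were 11 and 12. Relative to smolt medians, the mean log2 level of members that varied together was 0.16 in net-pen 4M fish 2, the group's highest. It was -1.01 in net-pen 4M fish 1, 0.05 in smolt 11 and -0.93 in smolt 12, among the lowest smolts. Whether the slide or the fish on it made the difference smaller was not tested. Net-pen 1M shared no slide with another group.

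The rearing systems were also set side by side at the same time. The rule set limits on both systems against the same smolts, which favours features with a like course in the 2 systems, so the counts and intervals that follow describe the members and nothing is read from their distance to the shares over all features. The values came from a limma fit on log2 expression ratios (log2-ER) recomputed from the scanner signals of all 14172 features kept by a filter on background, with Benjamini-Hochberg adjustment. All 34 members passed this filter. For S-CCS 4M against net-pen 4M no member had an adjusted p under 0.05, where 7.95% of all features did. At an unadjusted p under 0.05 there was 1 member, where 24.2% of all features passed, and the same member alone passed the criteria of the study (absolute log2-ER above 0.8, unadjusted p under 0.05), which 5.55% of all features met. The log2-ER was positive in 13 members and negative in 21, with a median of -0.09, while the median over all features was -0.00. The median was 0.11 without the 3 arrays of highest scale factor, 0.03 with normexp background correction and 0.03 with array weights, so its sign is not settled. The 95% intervals had a median half-width of 0.85, and in 8 members they lay wholly between -0.8 and 0.8. In the other members the interval reached beyond this range.

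The member that passed unadjusted was Ssa#GRASP209154443, with a log2-ER of 2.35 ± 0.96 (SE, 95% interval 0.39 to 4.32). In this member 3 net-pen 4M fish were at the floor and the others well above it, as also in Ssa#TC106938 and Ssa#S30263425. On the deposited values, set to at least 16, the log2-ER was 0.92, and with normexp background correction it was 0.66. With array weights it was 2.99, and the adjusted p of limma was then under 0.05, as in 2228 of the 14172 features. Among members lower in S-CCS 4M, the lowest p was that of Omy#S23939618, with -0.30 ± 0.24 (95% interval -0.79 to 0.20). For Ssa#GRASP223647757 the difference was -0.03 ± 0.35 (95% interval -0.74 to 0.68). For Ssa#GRASP209731023, the member with the least spread, it was 0.13 ± 0.17 (95% interval -0.21 to 0.47).

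For S-CCS 1M against net-pen 1M, 29 of the 34 members were lower in S-CCS and 5 higher, with a median log2-ER of -0.34 against 0.01 over all features. Without S-CCS 1M fish 2 the median was -0.20, with 26 members lower, and without lowess it was -0.19, with 23 lower. No member had an adjusted p under 0.05 in limma, where 6.5% of all features did. At an unadjusted p under 0.05 there were 2 members, where 24.1% of features passed, and the same 2 met the criteria of the study, as 6.15% of features did. These were Ssa#EL698468, with -1.55 ± 0.60 (SE, 95% interval -2.77 to -0.32), and Ssa#S47726818, with -1.90 ± 0.84 (95% interval -3.62 to -0.19). Both belong to the 9 members with high net-pen 1M medians. Ssa#GRASP209154443 had the lowest p among the 5 members higher in S-CCS 1M, with 1.04 ± 0.96. The 2 systems shared no slide at 4M or at 1M, so slide and system cannot be told apart in either comparison.

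**Figure D5:**
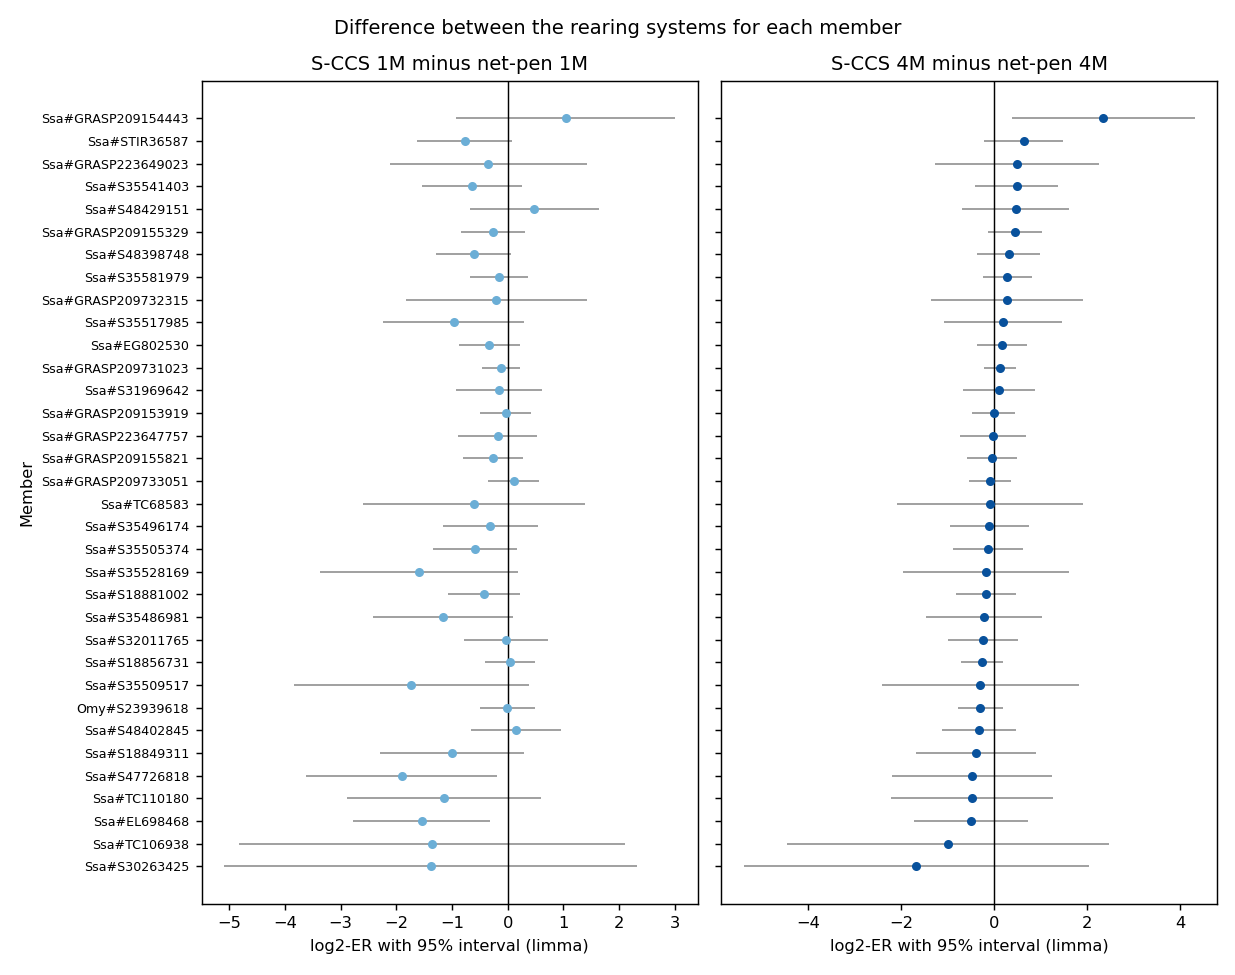
Log2-ER of S-CCS minus net-pen for each member at 1M (left) and 4M (right) with its 95% interval from limma, in the order of the value at 4M. At 1M 29 of 34 points lie below 0 and at 4M 21, and the interval excludes 0 for 2 members at 1M and for 1 at 4M, none of which had an adjusted p under 0.05.

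The change between 1M and 4M differed between the systems by a median log2-ER of 0.46 over the members (S-CCS change minus net-pen change), and 27 of 34 values were positive. The median over all features was -0.01. The members' values are not independent, as 27 members varied together between fish. Without S-CCS 1M fish 2 the members' median was 0.25, and without lowess it was 0.16, with 20 positive values. No member passed an adjusted p under 0.05 for this interaction in limma, where 16.3% of all features did. At an unadjusted p under 0.05 there was 1 member, where 32.2% of features passed, and this member met the criteria of the study, as 17.1% did. It was Ssa#STIR36587, with 1.40 ± 0.59 (SE, 95% interval 0.19 to 2.61). The lowest p among negative values was that of Ssa#S18856731, with -0.29 ± 0.31.

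In the same fit the members' median log2-ER against smolts was -0.87 for S-CCS and -0.79 for net-pen at 4M, smaller than the differences of medians that chose them, and at 1M it was -0.13 for S-CCS and 0.23 for net-pen. In S-CCS 4M 11 of 34 members had an adjusted p under 0.05 in limma and were lower than smolts, beside 13.3% of all features. In net-pen 4M the count was 14, beside 9.35%. At 1M no member passed in either system, beside 1.69% of features for S-CCS and 10.2% for net-pen. With array weights the counts at 4M were 21 for S-CCS and 21 for net-pen, beside 19.3% and 13.9% of features. At 1M 1 member was then called lower in S-CCS fish, beside 4.89% of features. Without lowess the counts at 4M were 17 for S-CCS and 15 for net-pen, beside 17.7% and 7.89% of features. With fish number as a block they were 8 and 12, beside 11.9% and 8.16%. The rule used these contrasts, so the counts were largely fixed by it, and no inference is drawn from them.

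The limits of the rule divided a continuous range. Just inside the limit of -0.8 were Ssa#S18881002, with -1.17 for S-CCS and -0.81 for net-pen at 4M, Ssa#EG802530 with -0.92 and -0.81, and Ssa#S35496174 with -0.88 and -0.82. Just outside were Ssa#GRASP209154053 with -1.20 and -0.80, Ssa#S35581896 with -0.79 and -0.83, and Ssa#S35508757 with -0.79 and -1.05, in the same order of systems. In 13 members the 4M difference nearest to the limit was within 0.1 of it, and 16 further features missed it by under 0.1. At the limit of -0.4 for 1M, 14 members were within 0.1 inside and 23 features within 0.1 outside. The features outside the list with the most similar profile over the 5 group medians were Omy#CX068459 (r = 0.989), Ssa#S35592754 (r = 0.985) and Ssa#S30346271 (r = 0.984). Their 4M differences from smolts were between -0.53 and -0.69, which is the same course at a smaller size.

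Membership depended on single fish. When each of the 31 fish was left out in turn, the rule took between 21 and 102 features, and 2 of the 34, Ssa#GRASP223649023 and Ssa#S35541403, were taken every time. Without S-CCS 1M fish 2 it took 101 features, without fish 6 of that group 102 and without fish 12 90, of which 30, 31 and 32 were among the 34. Without S-CCS 1M fish 7 or fish 1 it took 21 and 22 features. Leaving out 1 smolt kept between 10 and 16 of the 34. With means over fish in place of medians 29 features passed, and 12 of the 34 were among them.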

How the data were processed

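RNA of skin from 31 fish was hybridized in single colour, 1 fish per array, on 10 slides. Scanner tables of every array were deposited by the authors and gave the processed signal, a background-subtracted intensity. They also deposited a table of processed intensity values that equal the median signal minus background times 1 constant per array. The rule for the members was applied to that deposited table. Ratios on the log2 scale were not among the values the authors deposited and were computed here. Arrays were scaled to equal mean, each feature expressed relative to its mean over all arrays and the ratios corrected by lowess (span 0.3), after 145 values marked as outliers were left out. A feature was kept when 50% or more of the arrays of some group had it well above background (14172 kept). The software had removed a spatial trend on 7 arrays, 4 of them in net-pen 4M. The number of fish limits the precision. One limma fit (limma 3.58.1, R 4.3.3) covered 5 groups, with pooled within-group spread, and its steps were tested on simulated data. Python 3.11.15, pandas 2.3.3, numpy 2.4.6 and matplotlib 3.10.9 served for tables and figures.

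The members, lists and tests were chosen with earlier results of these data known. Members named are the 6 with the lowest mean 4M difference, the 4 with the brightest smolt median, those of lowest p per tested contrast and direction and those nearest the limits, and Ssa#GRASP209731023, Ssa#S35541403, Ssa#S48429151, Ssa#S47726818 and Ssa#S32011765 were added after their values were seen. Lists of gene groups and cell type markers had been drawn up, and none could be evaluated, because no probe ID was paired with a gene name, so the tissue could not be checked against its markers either. Alternatives were other scalings, background correction, filters, array weights, floors, blocks and arrays left out.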

Additional observations from a re-analysis of the deposited data

Results flagged for a closer look

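Among 85 sets of values (16 named members and the mean of the 27 members, in 5 groups), 6 held a fish separated from the others of its group by a gap that is large for the range, of which about 4.25 would arise by chance. Ssa#GRASP209154443 was at the floor of 16 in net-pen 1M fish 12, while the others had 67 to 152. In S-CCS 4M fish 11 it had 129, and the others had 57 to 72. Ssa#TC106938 was at the floor of 16 in smolt 7, with 128 to 556 in the other smolts. Net-pen 4M fish 2 was apart in Ssa#S18881002, with 779 against 485 to 576 in the other fish, in Ssa#S35496174, with 195 against 92 to 112, and in the mean of the 27 members, with 0.16 against -1.63 to -0.97 on the log2 scale relative to the smolt medians. The last 3 are not independent, as these members varied together.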

How the results depend on the processing

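No member was called between the systems, at 4M, at 1M or in the interaction, under 75th percentile scaling with or without lowess, quantile normalization, normexp, no lowess, the deposited values, other filters, slide as a random block, without S-CCS 1M fish 2, without net-pen 1M fish 1 or without the 3 arrays of highest scale factor (chosen after seeing the data, as were scaling without lowess, the single fish left out of the rule and the slide-sharing arrays). Over all features these settings called 1004 to 1848 at 4M, 537 to 1591 at 1M and 1511 to 3366 in the interaction. An exception was array weights, under which 1 member, Ssa#GRASP209154443, was called at 4M (log2-ER 2.99), beside 2228 of 14172 features. The study's criteria without adjustment gave 1 member at 4M, 2 at 1M and 1 in the interaction, beside 5.55%, 6.15% and 17.1% of features. With fish number as a replicate block the counts were 0, 0 and 0. The rule favours features with a like course in both systems, so nothing is read from these counts. Fish were killed at sampling, so same-numbered fish of different groups were different animals. The deviations of same-numbered fish had a median r of -0.02 over 60 pairs, with a range of -0.42 to 0.36.

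The members' median at 4M (S-CCS minus net-pen) ranged from -0.21 without lowess to 0.11 without the 3 arrays and was 0.03 with normexp, so its sign is not settled, while the median at 1M was between -0.49 and -0.19 and that of the interaction between 0.16 without lowess and 0.65 without the 3 arrays. The number of members was 21 on the processed signal after mean scaling and lowess and 21 after quantile normalization (17 and 18 of the 34), 101 without S-CCS 1M fish 2 and between 21 and 102 with 1 fish left out. The cause was not tested. Between 23 and 34 features passed under the remaining settings. The 21 values not well above background and the 41 at the floor limit the differences of the dimmest members.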
